A study of Arabidopsis thaliana with 4 samples.

Results

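The genes described here are the cytochrome P450s of the plant families CYP71, CYP76, CYP82, CYP705, CYP706 and CYP712, measured in dark-grown hypocotyls of Arabidopsis thaliana. They were taken by gene name from the table of expression values, which gave 96 of its 32538 genes: 50 of CYP71, 24 of CYP705, 8 of CYP76, 7 of CYP706, 5 of CYP82 and 2 of CYP712. Wild type plants of the Col-0 accession and plants of shr-2, a mutant of the transcription factor gene SHORT-ROOT (SHR) in the same accession, gave 2 libraries each, which the design text calls biological duplicates. Seeds of both genotypes were germinated for 24 hours on MS medium and kept in the dark at 22 °C, and the hypocotyl, the seedling stem, was cut off at an age of 5 days. The labels give no other treatment and 1 mutant allele. Because whole hypocotyls were used, fewer cells of a type and less RNA per cell cannot be told apart in any value below.

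Cytochrome P450s are haem enzymes that insert oxygen into small molecules, drawing electrons from a reductase partner in the endoplasmic reticulum membrane. The families considered here act mostly in specialised metabolism, where they decorate triterpenes, build defence compounds from amino acids or oxidise volatile terpenes. In Arabidopsis some of them sit beside the genes of the scaffold-forming enzymes in metabolic gene clusters, such as the thalianol, marneral and arabidiol clusters known mainly from roots. Others make camalexin, the indolic phytoalexin of this species, from tryptophan. SHR moves from the vascular tissue into the neighbouring cell layer and specifies the endodermis there.

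The label fields were not uniform. Titles, source names and the growth protocol give shr mutant hypocotyls, whereas a genotype field of the mutant libraries names an SCL28 overexpressor and a tissue field names the root tip. SHR stood at 28.4 and 28.9 FPKM (fragments counted per gene, relative to its length and to the size of the library) in the Col-0 libraries and at 2.57 and 3.45 FPKM in the shr-2 libraries. The 12 markers of root hairs, root cap and root meristem summed to between 0.391 and 0.865 FPKM per library, with 4 to 9 of them at 0. The 9 endodermis markers summed to 573 and 694 FPKM in Col-0 and to 20.7 and 22.7 FPKM in shr-2, and all 9 were lower in the mutant (limma). The 4 epidermis markers summed to 585 and 768 FPKM in Col-0 and to 549 and 769 FPKM in shr-2. The 4 cotyledon and leaf markers summed to 106 and 115 FPKM in Col-0 and to 118 and 130 FPKM in shr-2. This second sum held calls in both directions. YAB1 was higher in shr-2 (limma, log2 fold change 0.52, adjusted p = 0.0387). KAN1 was lower (limma, log2 fold change -0.95, adjusted p = 0.00418), and the other 2 markers did not pass. Pearson correlations of log2(FPKM + 1) across genes were 0.9936 between the Col-0 libraries, 0.9921 between the shr-2 libraries and 0.9627 to 0.9668 between genotypes.

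The enzymes share a loop that holds the cysteine bound to the haem iron. A haem-binding cysteine signature was found in the coding sequence of 93 of the 96 genes, and CYP705A2, CYP705A6 and CYP71A27 did not match it. The coding bases of this loop are given below for the enzymes on which the triterpene and camalexin results turn, read from the TAIR10.1 genome on the coding strand, with the cysteine codon in capitals.
CYP705A5 (chr5:19436247-19436276, plus strand): ttcggtagcggaaggagagctTGTcctgga
CYP705A1 (chr4:8751715-8751744, minus strand): tttgggagcggaaggagaatgTGTcctgga
CYP705A12 (chr5:17023823-17023852, minus strand): tttggaggtggaaggaggacaTGTcccgcg
CYP71A16 (chr5:17031388-17031417, minus strand): tttggagcagggagaaggttaTGTcccggc
CYP71B15 (chr3:9889384-9889413, plus strand): tttggatctggtaggagaataTGTccaggg
CYP71A12 (chr2:13099657-13099686, minus strand): ttcggatcagggagaaggattTGTccaggg
CYP71A13 (chr2:13110080-13110109, minus strand): ttcggatcagggagaaggataTGCcccggg
CYP705A5, CYP705A1 and CYP705A12 belong to 1 subfamily but to 3 different gene clusters. Over the whole coding sequence CYP705A5 was 75.0% identical to CYP705A1 and 75.5% to CYP705A12, and CYP705A1 was 72.4% identical to CYP705A12. CYP71A12 and CYP71A13, which lie in tandem and catalyse the same step, were 90.4% identical, so part of their reads may have been assigned to either gene.

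Of the 96 P450 genes, 15 were listed at 0 in all 4 libraries, 35 more had a mean under 1 FPKM and 46 were tested. In shr-2, 17 of the 46 were lower and 8 were higher (limma, Benjamini-Hochberg adjusted p under 0.05 over all 19920 genes tested), and 21 did not pass. The background was 13.7% of all tested genes lower and 13.9% higher, 27.6% in either direction. Lower calls thus made up 37.0% of the tested P450s and higher calls 17.4%, the second close to the background. Among the other 138 genes named as P450s, 79 were tested, with 21 lower and 18 higher. The libraries of the genotypes did not overlap in 39 of the 46, against 66.2% of all tested genes. A log2 fold change of at least 1 was reached by 7 lower and 2 higher genes, against a background of 4.78% and 4.33%. The median log2 fold change of the 46 genes was -0.02 and that of all tested genes 0.01. Log2 fold changes are of FPKM + 1, which understates the change of low genes, and folds of means are of FPKM.

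**Figure D1:**
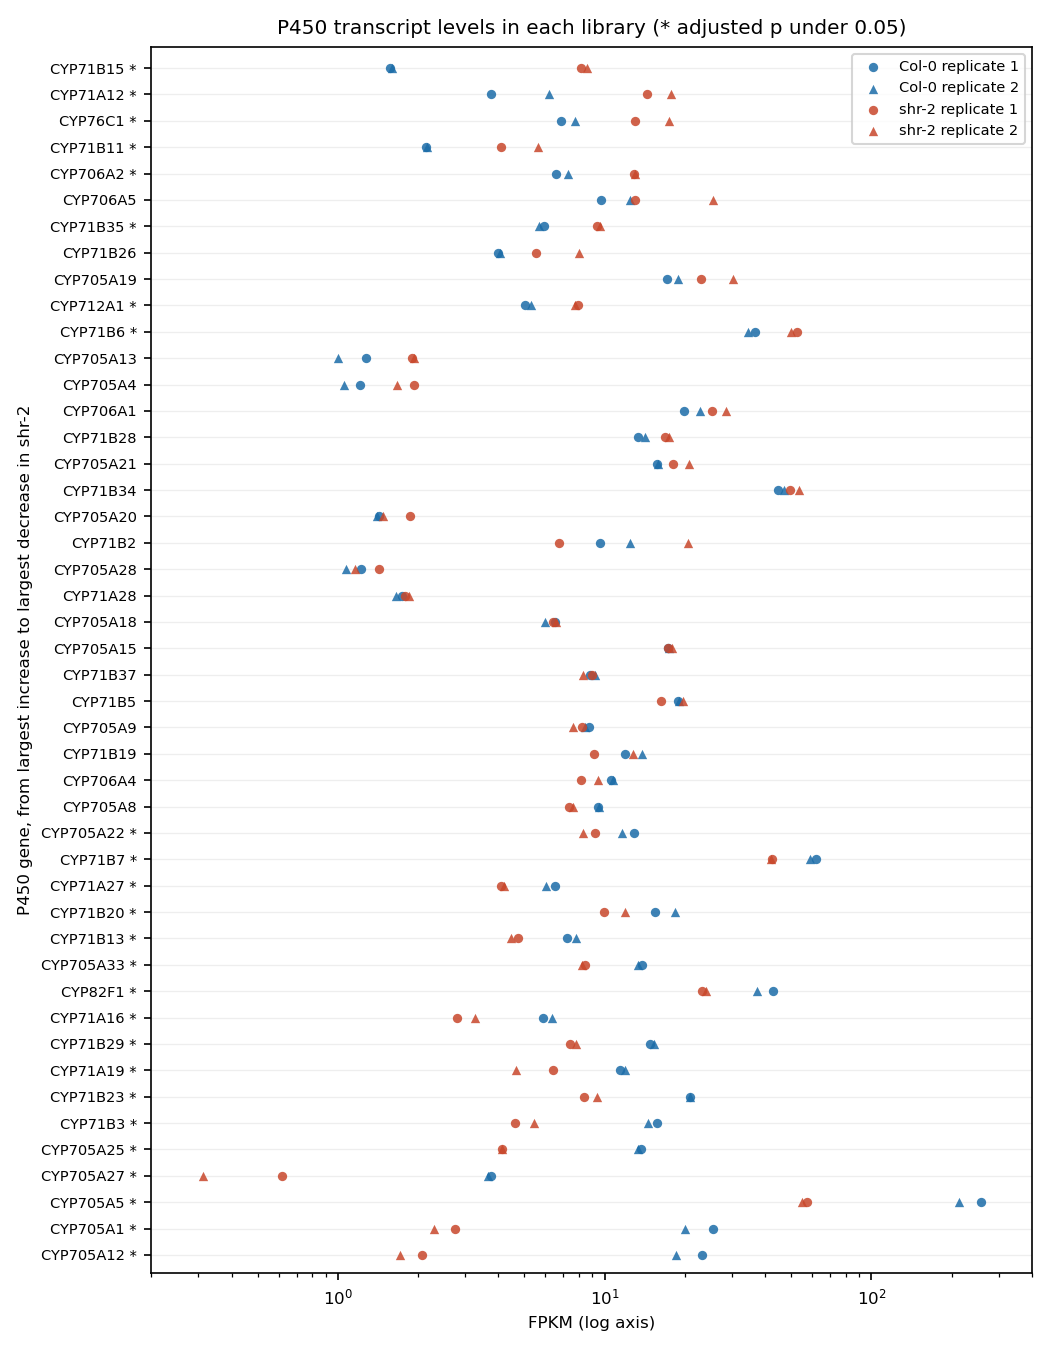
FPKM on a log axis (horizontal) of the 46 tested P450 genes (vertical, ordered by fold change) in each of the 4 libraries, where circles are replicate 1 and triangles replicate 2 of Col-0 (blue) and shr-2 (red). The points of the genotypes are farthest apart at the foot, where CYP705A12 fell from 23.2 and 18.6 to 2.07 and 1.72 FPKM, and at the top, where CYP71B15 rose from 1.57 and 1.60 to 8.14 and 8.58 FPKM.

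The largest log2 decreases among the 46 tested genes were those of CYP705A12, CYP705A1 and CYP705A5, P450s of the triterpene gene clusters. By fold of means CYP705A27, described further below, was 7.98-fold lower and so exceeded CYP705A5. CYP705A5 (AT5G47990, chr5:19434758-19436749 in TAIR10.1), the desaturase of the thalianol pathway, was at 258 and 213 FPKM in Col-0 against 57.2 and 54.8 FPKM in shr-2. This gene had the highest level of the 96 genes in every library, far above the next gene in Col-0 and close above CYP71B34 and CYP71B6 in shr-2. Its log2 fold change was -2.05 with a standard error (SE) of 0.12 (limma, adjusted p = 0.000976), a 4.20-fold lower mean. CYP705A1 (AT4G15330, chr4:8751320-8753297), which cleaves arabidiol to release a volatile homoterpene, read 25.4 and 20.1 FPKM in Col-0 and 2.74 and 2.29 FPKM in shr-2. This was a 9.05-fold lower mean (log2 fold change -2.75, SE 0.15, limma adjusted p = 0.000768). CYP705A12 (AT5G42580, chr5:17023502-17025361), a P450 of the marneral cluster, read 23.2 and 18.6 FPKM in Col-0 and 2.07 and 1.72 FPKM in shr-2. Its mean was 11.05-fold lower (log2 fold change -2.92, SE 0.15, limma adjusted p = 0.000596), the largest log2 decrease among the 46 tested genes of these families. Its neighbour CYP71A16 (AT5G42590, chr5:17031024-17033800), which oxidises marneral and marnerol, went from 5.87 and 6.34 to 2.81 and 3.26 FPKM, a smaller fold change (limma, log2 -0.82, SE 0.12, adjusted p = 0.00887). In these 4 genes both shr-2 libraries lay below both Col-0 libraries. CYP705A5, CYP705A1 and CYP705A12 passed the test with any of the 4 libraries dropped, and CYP71A16 missed it without Col-0 replicate 1 or 2 (adjusted p = 0.0589 and 0.0681, limma).

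Most of the tested genes listed as building or decorating triterpene scaffolds moved the same way. Of 14 listed triterpene genes, 10 were tested, 9 were lower, 0 higher (limma, also 0 at unadjusted p under 0.05) and LUP2, a lupeol synthase, did not pass (6.84 and 9.08 against 6.70 and 7.41 FPKM, adjusted p = 0.536, limma). The median log2 fold change of the 10 was -1.29, against 0.01 for all tested genes, of which 13.7% were lower and 13.9% higher. The triterpene list was chosen with earlier results of these data known, so its counts and median are a description. THAS1, the thalianol synthase, went from 91.6 and 84.5 to 30.9 and 28.2 FPKM (log2 fold change -1.54, limma adjusted p = 0.00112). CYP708A2, the P450 that hydroxylates thalianol and belongs to another family, went from 98.4 and 87.2 to 34.9 and 31.3 FPKM (log2 fold change -1.46, limma adjusted p = 0.00165). BAHD1, an acyltransferase gene of the same cluster, fell from 5.32 and 5.18 to 1.05 and 1.74 FPKM, and its call was lost without Col-0 replicate 1 (limma, adjusted p = 0.00548 with all libraries and 0.0525 without that one). SDR4, a short-chain dehydrogenase gene that lies on another chromosome, fell from 25.3 and 24.3 to 5.30 and 4.67 FPKM (log2 fold change -2.11, limma adjusted p = 0.000547). In these 4 genes, as in CYP705A5, both shr-2 libraries lay below both Col-0 libraries.

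For arabidiol, the synthase PEN1 fell with CYP705A1 beside it, from 16.6 and 20.02 to 3.79 and 3.84 FPKM (limma, a 4.80-fold lower mean, adjusted p = 0.000994). For marneral the picture of levels was different. MRN1, the marneral synthase, was under the filter, at 0.784 and 0.851 FPKM in Col-0 and 0.0268 and 0.0138 FPKM in shr-2. The wild type therefore held a mean of 20.9 FPKM of CYP705A12 beside 0.817 FPKM of the synthase of its cluster, both being levels per transcript length. LUP1, another lupeol synthase, fell from 25.5 and 26.2 to 13.1 and 13.5 FPKM (limma, adjusted p = 0.00294). CAS1, the cycloartenol synthase at the entry to sterols, went from 54.2 and 56.5 to 41.7 FPKM in both shr-2 libraries, the smallest of the 9 decreases (log2 fold change -0.40, limma adjusted p = 0.0257). The call of CAS1 was lost when any of the 4 libraries was dropped, with adjusted p between 0.103 and 0.129 (limma). Markers of the endodermis fell beside these genes (sums above), and their part in the decreases was not tested.

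Decreases were not uniform along the chromosome around the P450s. Within 40 kb of CYP705A5, 18 genes were annotated and 16 tested, of which 8 were lower and 3 higher in shr-2. Over all tested genes the shares were 13.7% lower and 13.9% higher. This count and the 2 below include the central P450, named above for its large decrease, and cluster genes already counted or described as lower. They describe each stretch and cannot be read as an excess over those shares. Directly beyond THAS1, AT5G48020 stood at 20.7 and 22.3 FPKM in Col-0 and 21.1 and 21.3 FPKM in shr-2, and GFA2 at 13.9 and 12.8 against 13.4 and 13.5 FPKM. Neither of these neighbours differed beyond the spread of its libraries. Outside CYP705A5 and the listed triterpene genes, AT5G47940, RPS27D and AT5G48060 were lower, and RBOHD, AT5G47920 and RABA4C were higher. AT5G47940 read 14.6 and 14.1 FPKM in Col-0 and 6.91 and 6.63 FPKM in shr-2 (limma, adjusted p = 0.00285). Around CYP705A12, 18 genes were annotated and 10 tested, with 3 lower and 1 higher. The higher one was AT5G42530, which went from 4.29 and 3.89 to 35.7 and 34.8 FPKM, and the lower one outside the P450s was DIR2, a dirigent protein gene, from 32.6 and 30.3 to 6.83 and 3.97 FPKM. Around CYP705A1, 21 genes were annotated, 7 tested and 4 lower, namely CYP705A1, PEN1, AT4G15260 and AT4G15390. AT4G15390 read 40.3 and 45.3 FPKM in Col-0 and 18.2 and 23.4 FPKM in shr-2. CYP705A2, CYP705A3 and the baruol synthase BARS1 in this stretch stayed at or under 0.213 FPKM in every library. CYP705A4, at its end, read 1.21 and 1.05 FPKM in Col-0 and 1.94 and 1.66 FPKM in shr-2 and did not pass (limma, adjusted p = 0.0999). The neighbours without a P450 name were chosen after their values were seen.

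**Figure D2:**
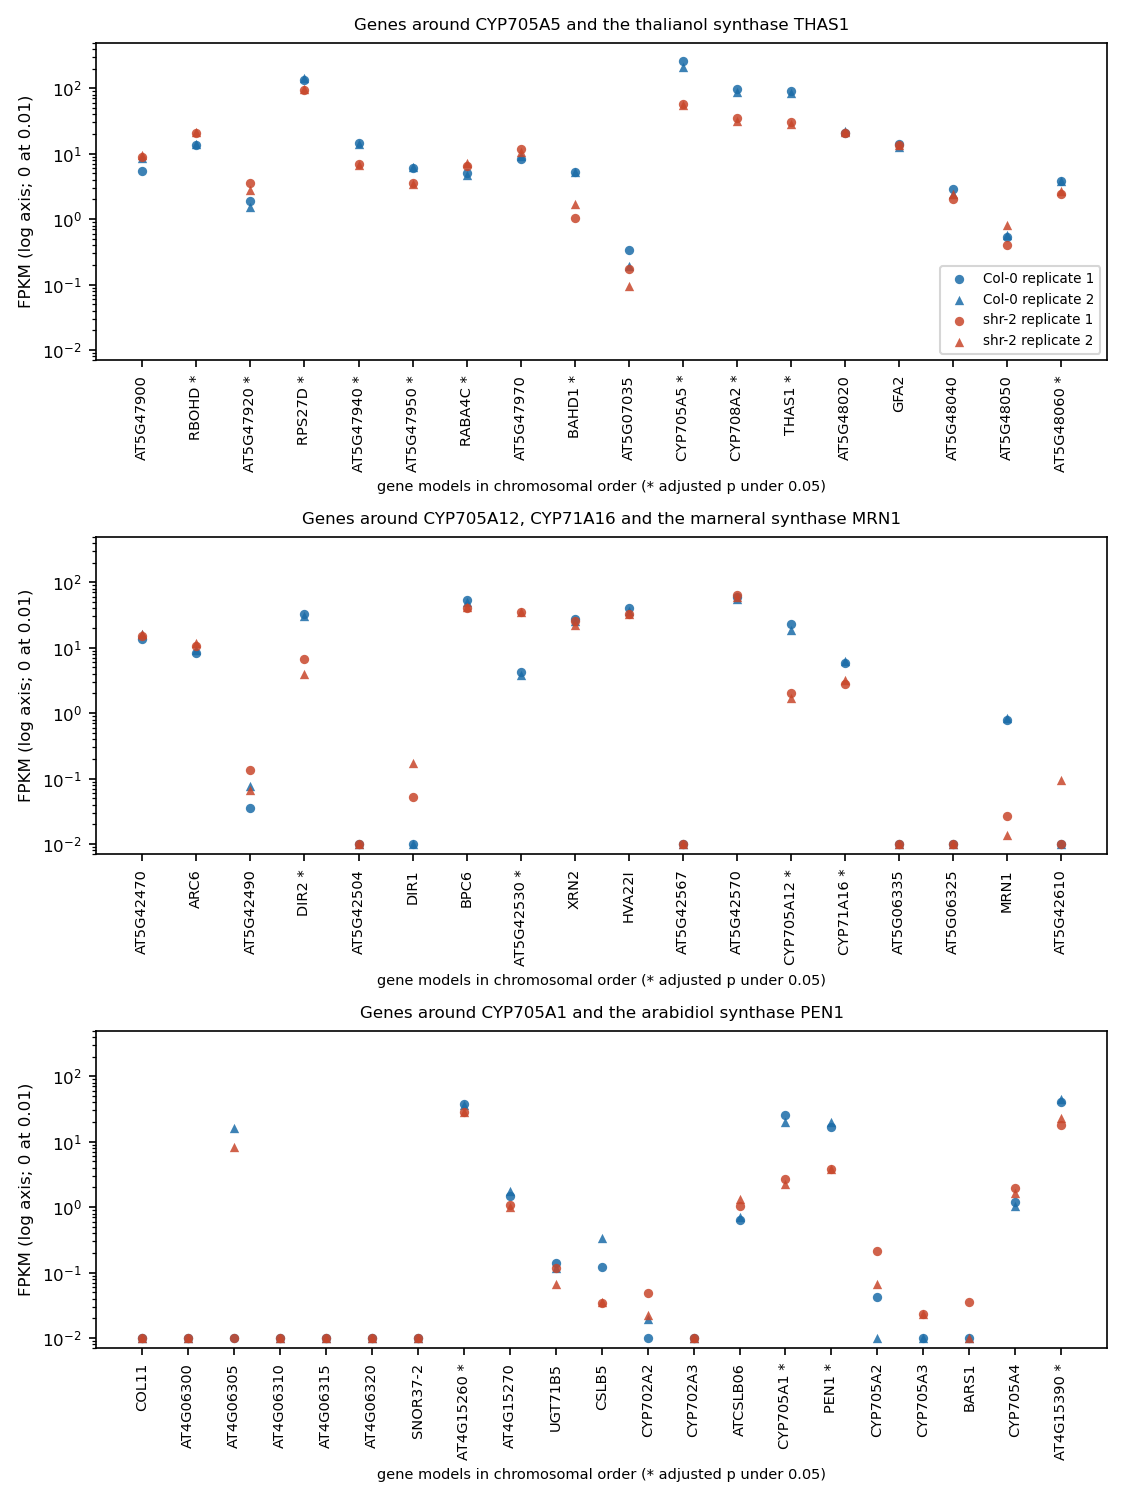
FPKM on a log axis (vertical, with values of 0 drawn at 0.01) of all annotated genes within 40 kb of CYP705A5, CYP705A12 and CYP705A1, in chromosomal order (horizontal), in each of the 4 libraries, with an asterisk at adjusted p under 0.05. The shr-2 points lie below the Col-0 points at CYP705A5, CYP708A2 and THAS1 in the upper panel, at CYP705A12 and CYP71A16 in the middle one and at CYP705A1 and PEN1 in the lower one, whereas at AT5G42530 in the middle panel they lie above.

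Of the P450s of camalexin and related indolic compounds, CYP71B15, CYP71A12 and CYP71B6 were higher in shr-2 and CYP71A27 was lower. CYP71B15 (AT3G26830, chr3:9887917-9889791), also called PAD3, which catalyses the last steps of camalexin formation, was at 1.57 and 1.60 FPKM in Col-0 and 8.14 and 8.58 FPKM in shr-2. Its mean was 5.27-fold higher (log2 fold change 1.86, SE 0.11, limma adjusted p = 0.000901), the largest log2 increase among the 46 tested genes of these families. CYP71A12 (AT2G30750, chr2:13099486-13101371), which turns indole-3-acetaldoxime into a nitrile, was at 3.75 and 6.18 FPKM in Col-0 and 14.4 and 17.7 FPKM in shr-2 (log2 fold change 1.54, SE 0.23, limma adjusted p = 0.00904). Its tandem copy CYP71A13 (AT2G30770), the main enzyme of this step in camalexin synthesis, was under the filter, listed at 0 in both replicates of Col-0 against 1.07 and 1.23 FPKM in shr-2. CYP71A13 also overlaps AT2G30766 on the opposite strand over 572 bases. CYP71B6 (AT2G24180, chr2:10281718-10283735), which metabolises indole-3-acetonitrile, was at 36.7 and 34.6 FPKM in Col-0 and 52.8 and 50.1 FPKM in shr-2 (log2 fold change 0.52, SE 0.09, limma adjusted p = 0.0147). CYP82C2, which hydroxylates an indolic nitrile of defence, was under the filter with 0.226 and 0.800 FPKM in Col-0 and 1.17 and 1.70 FPKM in shr-2, and CYP71A18, another close relative of CYP71A12, was listed at 0 everywhere. CYP71B15, CYP71A12, CYP71B6, CYP71A13 and CYP82C2 had both shr-2 libraries above both Col-0 libraries, with CYP71A13 and CYP82C2 untested here. Genotypes separated, in either direction, in 66.2% of all tested genes. The authors' deposited table called CYP82C2 but not CYP71A13 (q = 0.00331 and 0.335 there). The calls of CYP71B15 and CYP71A12 held when any of the 4 libraries was dropped, while that of CYP71B6 was lost in all 4 cases (limma, adjusted p between 0.0548 and 0.0916).

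Genes of the same metabolism outside these families went in both directions. Of 11 listed genes all were tested, 3 were higher, 4 lower and 4 did not pass, with a median log2 fold change of -0.06 against 0.01 for all tested genes. Background shares were 13.9% higher and 13.7% lower, and this list too was chosen with earlier results of these data known. GSTF6, a glutathione transferase of the camalexin route, rose from 50.5 and 61.4 to 110 and 142 FPKM (log2 fold change 1.15, limma adjusted p = 0.00859). FOX1, the oxidase that leads from the indolic nitriles to cyanogenic products, rose from 1.58 and 2.00 to 4.57 and 3.84 FPKM (log2 fold change 0.90, limma adjusted p = 0.0123). Both calls were lost without Col-0 replicate 1 (limma, adjusted p = 0.0687 for GSTF6 and 0.0752 for FOX1). CYP79B2, which makes indole-3-acetaldoxime from tryptophan, read 31.4 and 29.5 against 41.9 and 38.2 FPKM (log2 fold change 0.38, limma adjusted p = 0.0426), a call lost when any of the 4 libraries was dropped (0.0915 to 0.185). Its paralogue CYP79B3 read 56.5 and 48.5 against 52.7 and 47.9 FPKM (limma, adjusted p = 0.747). The libraries of CYP79B2 thus separated by genotype and those of CYP79B3 overlapped, and the difference between these genes was not tested.

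The 3 MYB regulators on the list and CYP83B1 were lower, and WRKY33 did not pass. MYB122, MYB51 and MYB34 are the transcription factors of indolic glucosinolate genes. MYB122 fell from 2.38 and 2.19 to 0.596 and 0.420 FPKM (log2 fold change -1.12, limma adjusted p = 0.00596) and MYB51 from 31.7 and 34.4 to 20.1 and 17.4 FPKM (log2 fold change -0.79, limma adjusted p = 0.00792). The call of MYB122 held in all 4 leave-one-out fits, and that of MYB51 was lost without Col-0 replicate 1 or 2 (limma, adjusted p = 0.0544 and 0.0667). MYB34 read 61.0 and 54.2 against 42.9 and 39.4 FPKM (limma, adjusted p = 0.0292), and CYP83B1, which channels the aldoxime to glucosinolates, read 190 and 183 against 136 and 133 FPKM (limma, adjusted p = 0.0185). Both of those calls were lost when any of the 4 libraries was dropped, with adjusted p from 0.0685 to 0.143 for MYB34 and from 0.0727 to 0.121 for CYP83B1 (limma). WRKY33, which activates CYP71B15 and CYP71A13 during infection, read 16.3 and 21.2 FPKM in Col-0 and 15.0 and 15.4 FPKM in shr-2 and did not pass (log2 fold change -0.27, limma adjusted p = 0.226). CYP71A27 (AT4G20240), implicated in camalexin formation in roots and 1 of the 3 genes without the haem signature, fell from 6.53 and 6.02 to 4.09 and 4.19 FPKM (log2 fold change -0.50, limma adjusted p = 0.0262). Its call was lost when any of the 4 libraries was dropped (limma, adjusted p = 0.0931 to 0.140).

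**Figure D3:**
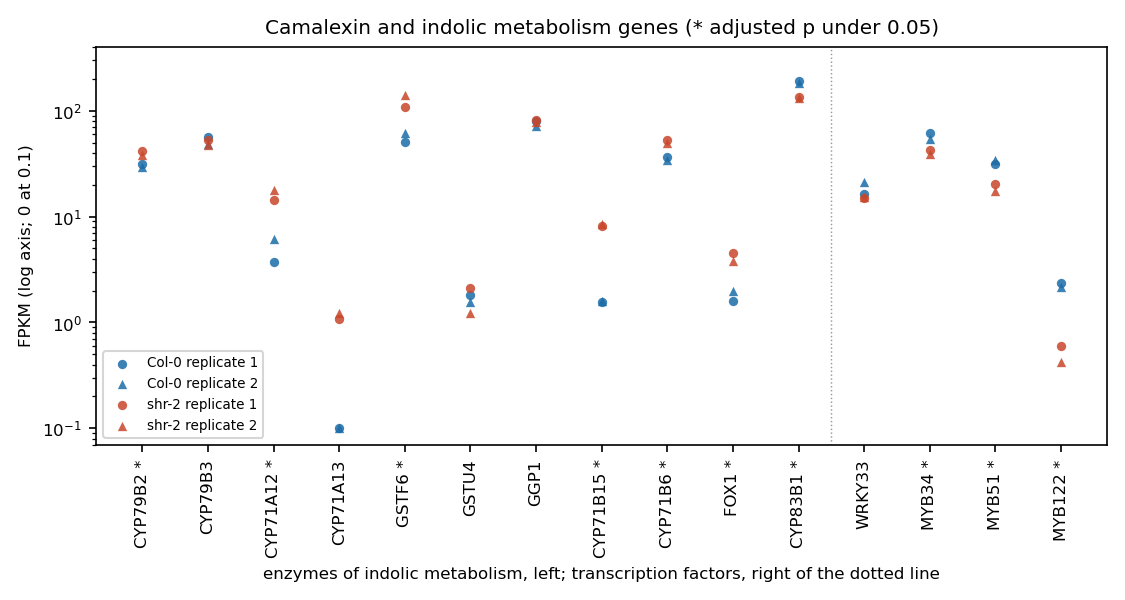
FPKM on a log axis (vertical, with values of 0 drawn at 0.1) of enzymes (left of the dotted line) and transcription factors (right of it) of camalexin and indolic metabolism in each of the 4 libraries, with an asterisk at adjusted p under 0.05. The shr-2 points lie above the Col-0 points at CYP71A12, GSTF6, CYP71B15 and FOX1 and below them at CYP83B1 and at MYB34, MYB51 and MYB122.

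The upstream sequences of the triterpene and camalexin P450s were searched for the binding motif core of WRKY factors (W-box core, TTGAC) and for the G-box (CACGTG), on both strands of the 250 bases before the annotated gene start. The window of CYP71B15 is shown as that of the largest increase among the 46, and those of CYP705A12 and CYP71A16 as those of neighbours that fell by different amounts. Sequences are from TAIR10.1, run 5′ to 3′ towards the gene, and carry any W-box core in capitals, here read on the opposite strand.
CYP71B15 upstream region (chr3:9887667-9887916, plus strand): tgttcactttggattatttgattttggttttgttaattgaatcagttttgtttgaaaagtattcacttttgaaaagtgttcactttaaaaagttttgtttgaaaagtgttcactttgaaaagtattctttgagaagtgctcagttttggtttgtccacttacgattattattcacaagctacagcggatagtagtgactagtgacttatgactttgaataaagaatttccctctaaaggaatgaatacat
CYP705A12 upstream region (chr5:17025362-17025611, minus strand): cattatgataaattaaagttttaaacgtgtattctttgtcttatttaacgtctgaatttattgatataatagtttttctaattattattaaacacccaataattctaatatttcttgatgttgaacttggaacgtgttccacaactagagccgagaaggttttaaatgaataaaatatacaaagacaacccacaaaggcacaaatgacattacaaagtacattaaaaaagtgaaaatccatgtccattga
CYP71A16 upstream region (chr5:17033801-17034050, minus strand): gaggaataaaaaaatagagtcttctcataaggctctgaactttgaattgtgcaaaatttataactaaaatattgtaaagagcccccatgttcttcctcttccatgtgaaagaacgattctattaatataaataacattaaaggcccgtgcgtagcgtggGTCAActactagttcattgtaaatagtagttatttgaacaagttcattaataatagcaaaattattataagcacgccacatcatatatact
Bases further upstream were not searched. The W-box core was absent from the windows of CYP71B15, CYP705A12, CYP705A1 and CYP705A5 and present once in that of CYP71A16. It occurred in 51 of the 96 P450 windows (53.1%) and in 12329 of the 27443 windows of all protein-coding genes (44.9%). Among called P450s it occurred in 4 of the 8 higher and 9 of the 17 lower genes. The G-box occurred in 3 of the 96 windows (3.1%), against 6.5% of all protein-coding genes, and in 0 of the 25 called genes. Each motif was counted on its own, whether or not it overlapped the other.

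The CYP705 family held 7 of the 17 lower calls and 0 of the higher calls. Of its 24 genes 17 were tested and 10 did not pass. Lower calls made up 41.2% of its tested genes, close to 40.9% in CYP71 and 37.0% of all 46 tested P450s. Over all tested genes 13.7% were lower and 13.9% higher. At unadjusted p under 0.05 in the same limma fit, 8 of the 17 were lower and 4 higher, and the authors' deposited table called 7 lower and 2 higher. CYP705A27 (AT1G50520, chr1:18719378-18721219) and CYP705A25 (AT1G50560, chr1:18724190-18726272) are neighbours with 89.5% identical coding sequences, and neither has a role that is certain. CYP705A27 fell from 3.75 and 3.67 to 0.617 and 0.313 FPKM (log2 fold change -1.69, SE 0.16, limma adjusted p = 0.00263) and CYP705A25 from 13.7 and 13.4 to 4.11 and 4.14 FPKM (log2 fold change -1.50, SE 0.10, limma adjusted p = 0.0011). CYP705A25 overlaps an antisense RNA gene over 193 bases. CYP705A33 (AT3G20960) fell less, from 13.8 and 13.3 to 8.42 and 8.24 FPKM (log2 fold change -0.64, limma adjusted p = 0.00851), a call lost without Col-0 replicate 1 or 2 (0.0770 and 0.0644). The summed level of the family went from 432 and 374 FPKM in Col-0 to 173 and 177 FPKM in shr-2, with CYP705A5 its most abundant gene in every library.

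CYP705 genes with a high mean that did not pass were CYP705A19, CYP705A21 and CYP705A15, which lie in 1 tandem row. CYP705A19 read 17.1 and 18.8 FPKM in Col-0 and 23.0 and 30.4 FPKM in shr-2, with the shr-2 libraries above but far apart (limma, adjusted p = 0.060). Without shr-2 replicate 1 it passed (limma, adjusted p = 0.0311). CYP705A21 read 15.8 and 15.9 against 18.1 and 20.7 FPKM (limma, adjusted p = 0.115) and CYP705A15 read 17.3 and 17.4 against 17.4 and 17.8 FPKM (limma, adjusted p = 0.912). Reads of CYP705A15 are uncertain, since a transcribed pseudogene overlaps it on the same strand.

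In the CYP71 family, which holds 50 of the 96 genes, 22 were tested, 9 were lower, 5 higher and 8 did not pass. The shares were 40.9% lower and 22.7% higher, against 13.7% and 13.9% of all tested genes. The genes of this family in the next sentences have no role that is certain. CYP71B3 (AT3G26220) fell from 15.7 and 14.6 to 4.60 and 5.44 FPKM (log2 fold change -1.43, SE 0.12, limma adjusted p = 0.00197). CYP71B23 (AT3G26210), its neighbour with a 69.7% identical coding sequence, fell from 20.9 and 20.95 to 8.34 and 9.38 FPKM (log2 fold change -1.16, SE 0.10, limma adjusted p = 0.00228). CYP71B29 (AT1G13100) fell from 14.7 and 15.3 to 7.43 and 7.82 FPKM (log2 fold change -0.89, SE 0.09, limma adjusted p = 0.00363). These 3 calls held when any of the 4 libraries was dropped. CYP71A19 (AT4G13290) went from 11.5 and 11.9 to 6.38 and 4.64 FPKM (log2 fold change -0.97, SE 0.16, limma adjusted p = 0.0113). Without Col-0 replicate 1 or 2 it missed the threshold (limma, adjusted p = 0.0815 and 0.0857). CYP71A19 overlaps the terpene synthase gene TPS13 on the opposite strand over 265 bases.

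CYP71B7 (AT1G13110), the second most abundant of the 96 genes in Col-0, read 61.7 and 58.8 FPKM there and 42.5 and 42.1 FPKM in shr-2 (log2 fold change -0.50, limma adjusted p = 0.0140). CYP71B20 (AT3G26180) read 15.5 and 18.4 against 9.95 and 11.97 FPKM (log2 fold change -0.58, limma adjusted p = 0.0355), and its neighbour CYP71B19, with a 96.2% identical coding sequence, did not pass (limma, adjusted p = 0.400). Given that identity, the split of reads between these neighbours is uncertain. With any of the 4 libraries dropped both calls were lost, with adjusted p from 0.0619 to 0.0905 for CYP71B7 and from 0.0538 to 0.174 for CYP71B20 (limma).

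Among the CYP71 genes that rose, CYP71B11 (AT5G25120) went from 2.14 and 2.16 to 4.09 and 5.64 FPKM (log2 fold change 0.88, SE 0.16, limma adjusted p = 0.0176) and CYP71B35 (AT3G26310) from 5.93 and 5.70 to 9.37 and 9.58 FPKM (log2 fold change 0.62, SE 0.10, limma adjusted p = 0.0107). The sequence of CYP71B11 is 91.89% identical to that of its neighbour CYP71B12 over the 80.66% of it that aligned, so the split of reads between them is uncertain. The call of CYP71B11 was lost without Col-0 replicate 1 or 2 (limma, adjusted p = 0.1003 and 0.0967). That of CYP71B35 was lost without Col-0 replicate 1, Col-0 replicate 2 or shr-2 replicate 2 (limma, adjusted p = 0.0740, 0.0805 and 0.0599). CYP71B34, next to CYP71B35, had a high level that did not pass, at 44.8 and 46.9 FPKM in Col-0 and 49.7 and 53.6 FPKM in shr-2 (limma, adjusted p = 0.238). CYP71B5 read 18.9 and 19.0 against 16.2 and 19.7 FPKM, with overlapping genotypes (limma, adjusted p = 0.669). CYP71B2, chosen after its values were seen, read 9.59 and 12.5 FPKM in Col-0 and 6.74 and 20.5 FPKM in shr-2, so that the mutant libraries lay on either side of the wild type.

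The smaller families had 1 to 4 tested genes each. CYP76C1 (AT2G45560), which oxidises the monoterpene alcohol linalool, rose from 6.88 and 7.76 to 12.98 and 17.4 FPKM (log2 fold change 0.95, SE 0.16, limma adjusted p = 0.0140). It missed the threshold without Col-0 replicate 1 or 2 (limma, adjusted p = 0.1001 and 0.0746). Its tandem neighbours CYP76C2, CYP76C3 and CYP76C4, which also act on monoterpene alcohols, stayed at or under 0.256 FPKM in every library. CYP82F1 (AT2G25160) fell from 42.7 and 37.2 to 23.26 and 23.91 FPKM (log2 fold change -0.73, SE 0.10, limma adjusted p = 0.00813), a call lost without Col-0 replicate 1 (0.0577). CYP706A2 (AT4G22710) rose from 6.57 and 7.28 to 12.94 and 13.001 FPKM (log2 fold change 0.82, SE 0.10, limma adjusted p = 0.00537), a call lost without Col-0 replicate 1 (0.0535). Its neighbour CYP706A1, with a 97.5% identical coding sequence, read 19.8 and 22.8 against 25.3 and 28.5 FPKM and did not pass (limma, adjusted p = 0.104), so reads of the pair are uncertain. CYP712A1 (AT2G42250) rose from 5.05 and 5.31 to 7.93 and 7.76 FPKM (log2 fold change 0.52, SE 0.10, limma adjusted p = 0.0200). It lies wholly within a long non-coding RNA gene on the opposite strand, and its call was lost when any of the 4 libraries was dropped (limma, adjusted p = 0.0831 to 0.120).

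Several P450s were at or near 0 in these hypocotyls. CYP82G1, which forms volatile homoterpenes in leaves, CYP82C4, which hydroxylates coumarins under iron deficiency, and CYP71B31 were listed at 0 in all 4 libraries. CYP706A3, which oxidises terpenes in flowers, was at 0.113 to 0.143 FPKM. Among the 35 genes under the filter that were above 0 in some library, the highest value was the 1.70 FPKM of CYP82C2 in shr-2 replicate 2. The worth of 1 fragment in a 1.5 kb transcript, as the median of the lowest values (FPKM times transcript length in kb), was at least 0.0287 FPKM in every library with values from 0.03 to 0.06 kept, and up to 0.0353 FPKM with values from 0.01 to 0.1 kept, a window chosen after seeing the data. The figure is set in part by the window chosen and is rough, so it does not give the number of fragments behind the low level of CYP706A3. Of the 19 P450s with a known role, 9 were tested, 4 were higher and 5 lower, against 13.9% and 13.7% of all tested genes. This list was drawn up with results of these data known, so its count is a description.

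Further lists held genes of neighbouring pathways. Of 11 terpene synthase genes for volatiles only TPS12 was tested, at 4.34 and 3.54 FPKM in Col-0 and 2.40 and 2.55 FPKM in shr-2 (log2 fold change -0.50, limma adjusted p = 0.0492). Its call was lost when any of the 4 libraries was dropped (limma, adjusted p = 0.0824 to 0.180). Of 12 coumarin and iron genes 6 were tested, 2 were higher and 2 lower, against 13.9% and 13.7% of all tested genes. AtMYB10, a transcription factor of the iron deficiency response, rose from 45.0 and 45.9 to 94.3 and 79.0 FPKM (limma, adjusted p = 0.00576), and FIT, the master regulator of iron uptake in roots, read 2.31 and 2.88 against 1.29 and 1.33 FPKM (limma, adjusted p = 0.02997). ABCG37, a coumarin exporter, read 10.0 and 11.6 against 5.84 and 6.95 FPKM (limma, adjusted p = 0.0202), and the beta-glucosidase BGLU42 read 9.55 and 9.60 against 13.2 and 13.9 FPKM (limma, adjusted p = 0.0222). The calls of FIT and BGLU42 were lost when any of the 4 libraries was dropped, that of AtMYB10 without Col-0 replicate 1 or 2 (limma, adjusted p = 0.0571 and 0.0525), and that of ABCG37 without Col-0 replicate 1, Col-0 replicate 2 or shr-2 replicate 1 (0.0789, 0.122 and 0.0825). For FIT those adjusted p ran from 0.0592 to 0.105 and for BGLU42 from 0.0832 to 0.123 (limma).

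Of the 8 genes that pass electrons to P450s all were tested, 2 were higher and 0 lower (limma), and 3 were lower at unadjusted p under 0.05. The calls made up 25.0% of the list, near the 27.6% of all tested genes called in either direction. The P450 reductases ATR1 and ATR2 read 138 and 132 against 120 and 122 FPKM and 102 and 106 against 85.8 and 90.3 FPKM, and did not pass (limma, adjusted p = 0.249 and 0.109). CYTB5-C, a cytochrome b5, rose from 14.6 and 19.3 to 48.1 and 44.9 FPKM (log2 fold change 1.42, SE 0.15, limma adjusted p = 0.00363), a call kept with any of the 4 libraries dropped. CYTB5-B, another cytochrome b5, read 46.3 and 50.9 against 67.3 and 63.6 FPKM (limma, adjusted p = 0.0315), a call lost in all 4 of those fits (0.0894 to 0.153).

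Many of the genes lie in tandem rows, which share sequence and in part reads, so neighbours are not independent. With starts less than 20 kb apart as the criterion, 77 of the 96 genes fell into 21 tandem groups and 19 stood alone. At least 1 gene was called in 14 groups. Of the 13 groups with at least 2 tested genes, 1 held calls in both directions, with CYP71B11 higher and CYP71B13 lower (7.26 and 7.84 against 4.73 and 4.46 FPKM). Groups with fewer than 2 called genes could not hold both directions, so this count does not measure how far neighbours moved together. The CYP71B13 call was lost when any of the 4 libraries was dropped (limma, adjusted p = 0.0512 to 0.0969). The largest group, from CYP71B16 to CYP71B24, has 9 genes, of which 4 were tested and 3 were lower. The group from CYP705A15 to CYP705A23 has 7 genes, of which 6 were tested and 1 was lower. That gene, CYP705A22, read 12.9 and 11.7 against 9.17 and 8.30 FPKM and lost its call when any of the 4 libraries was dropped (limma, adjusted p = 0.0376 with all libraries, 0.0891 to 0.189 without one).

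**Figure D4:**
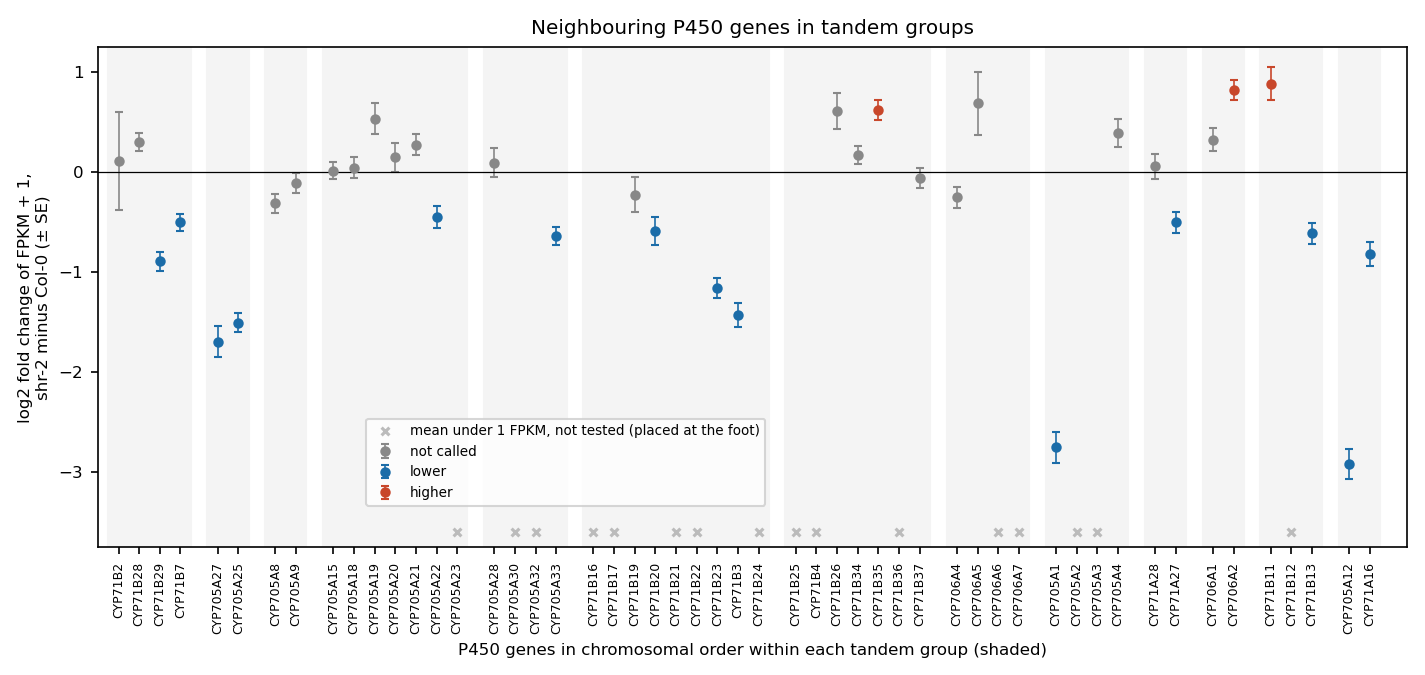
Log2 fold change of FPKM + 1, shr-2 minus Col-0 (vertical, points with standard error from the limma fit) of P450 genes in the 13 tandem groups with at least 2 tested genes (shaded, genes in chromosomal order). CYP705A1 and CYP705A12 lie near -3 while CYP705A4, at the other end of the row of CYP705A1, did not pass. Only the group of CYP71B11 holds calls in both directions, which groups with fewer than 2 calls could not.

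Summed over the 96 genes, the level was 863 and 817 FPKM in the Col-0 libraries and 581 and 642 FPKM in the shr-2 libraries, so the genotypes did not overlap. CYP705A5 alone made up 29.9% and 26.0% of the sum in Col-0 and 9.84% and 8.54% in shr-2. Without it the sums were 605 and 604 FPKM in Col-0 and 524 and 587 FPKM in shr-2. The CYP71 family, the largest, summed to 328 and 337 FPKM in Col-0 and 301 and 335 FPKM in shr-2, where the genotypes overlapped. The CYP706 family summed to 47.6 and 54.2 FPKM in Col-0 and to 60.5 and 77.7 FPKM in shr-2.

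**Figure D5:**
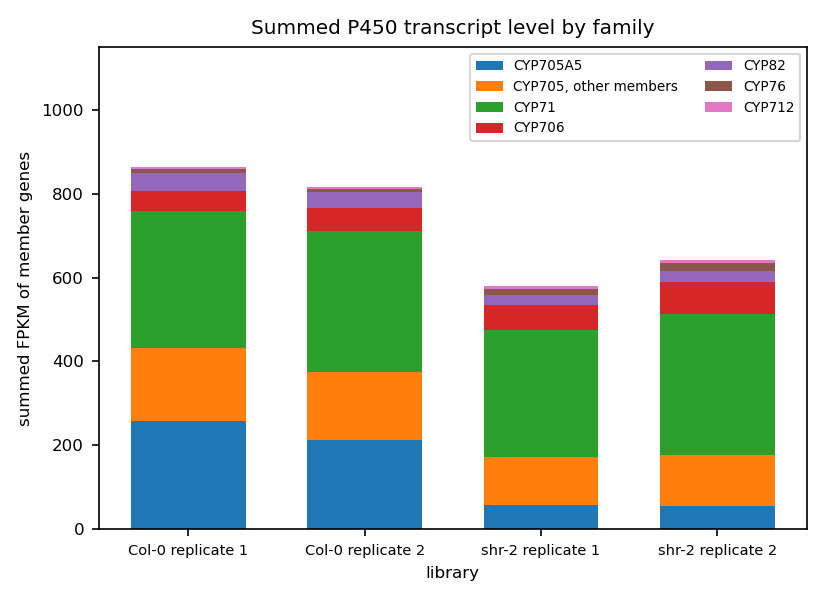
Summed FPKM (vertical) of the 96 P450 genes in each of the 4 libraries (horizontal), divided into CYP705A5, the rest of its family and the other families. The bars reach 863, 817, 581 and 642 FPKM, and the lowest segment, CYP705A5, shrinks from 258 and 213 FPKM in Col-0 to 57.2 and 54.8 FPKM in shr-2.

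The authors' deposited table of their own comparison held a completed test for 58 of the 96 genes and called 29 of them, 17 lower and 12 higher in shr-2. Over all genes it called 24.8% of 21844. It shared 24 calls with those given here, and CYP712A1 was called here but not there (q = 0.0820 in the authors' deposited table). The 5 genes called in the authors' deposited table and not here were CYP705A13, CYP705A19, CYP71B26, CYP706A5 and CYP82C2. CYP706A5 shows the difference in its libraries, which read 9.71 and 12.4 FPKM in Col-0 and 13.1 and 25.5 FPKM in shr-2 (limma, adjusted p = 0.179). Both analyses rest on the same libraries and are not independent.

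The count of calls changed when 1 library was left out, and the share called over all tested genes fell in every such fit. A call lost in such a fit is therefore not shown to rest on the library left out. Without Col-0 replicate 1 the higher and lower calls among the P450s numbered 2 and 8, without Col-0 replicate 2 they numbered 3 and 9, without shr-2 replicate 1 they numbered 10 and 12, and without shr-2 replicate 2 they numbered 5 and 12. The share of all tested genes called lower fell in the same fits from 13.7% to 5.49%, 5.81%, 8.99% and 9.03%, and that called higher from 13.9% to 4.84%, 5.56%, 10.3% and 8.21%. In every one of the 4 fits CYP71A12 and CYP71B15 were higher, and CYP705A1, CYP705A5, CYP705A12, CYP705A25, CYP705A27, CYP71B3, CYP71B23 and CYP71B29 were lower.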

How the data were processed

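RNA-seq of 4 libraries was analysed, 2 of Col-0 and 2 of shr-2, grouped by title. Per the labels' protocols, libraries were made with a stranded TruSeq kit; the sources used here do not say if counting used strand. The submitters' processing notes name Cuffdiff 2.2.0, TopHat2 2.0.13 and CASAVA 1.8.2, and the TAIR10 build. The authors deposited FPKM per gene and library. The authors' deposited comparison lists p-values and q-values, the log2 fold change, its unsigned fold (a ratio), the statistic of the test (a score) and mean FPKM, and only its calls and q-values are quoted. No read counts were used, so depth is known only from a rough estimate out of the lowest values.

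Here log2(FPKM + 1) of the 19920 genes averaging 1 FPKM or more entered a limma 3.58.1 fit in R 4.3.3 (eBayes with trend, 2 residual and 3.02 prior degrees of freedom), 2-sided, with Benjamini-Hochberg adjustment over all genes and a threshold of 0.05. An exact permutation test of 2 against 2 libraries cannot go below p = 0.333. On simulated data the fit was checked for recovery of known changes. Alternatives changed the pseudocount, filter, scaling and trend, added a replicate block or left out a library.

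The authors' loci contained the TAIR10.1 gene of the same identifier for all 96 P450s and equalled it for 84; coordinates and sequences are from RefSeq's TAIR10.1 (Biopython 1.88). By blastn 2.17.0, 18 of the 96 match another transcript at 90% identity or more across 50% or more of the gene, and 14 overlap another gene model, 5 on the same strand; their reads are uncertain.

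The P450s and gene lists were chosen with earlier results of these data known. Named were up to 12 called P450s with the largest change in each direction, the 6 of highest mean not called, all of known role, and up to 4 called genes per partner list (56 entries in 5 lists). Other genes of the clusters and pathways, CYP71B2, and tandem neighbours were named after their values were seen.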

Additional observations from a re-analysis of the deposited data

How the results depend on the processing

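Other pseudocounts, filters, scalings and an untrended fit gave 6 to 10 P450s higher and 15 to 17 lower in shr-2, against 8 and 17. With 1 library left out, a fit in which the lone sample is assumed to vary like the other genotype, the counts ranged from 2 to 10 higher and 8 to 12 lower, and among listed partner genes from 1 to 4 higher (of 7) and 7 to 10 lower (of 16). The cause was not tested. In these fits 4 of the 46 tested P450s changed sign, none of them called with all libraries (limma, adjusted p from 0.669 to 0.912). They were CYP71B5 (log2 fold change from -0.211 to 0.0541, the latter without shr-2 replicate 1), CYP705A15 (from -0.00255, without shr-2 replicate 2, to 0.0342), CYP705A18 (-0.0132 without Col-0 replicate 2) and CYP71B2 (-0.0597 without Col-0 replicate 1 and -0.6255 without shr-2 replicate 2). Replicate numbers do not pair the samples by label. The deviations of same-numbered libraries correlated at 0.305, and a fit with the replicate block called 14 P450s higher and 18 lower and 8729 genes in all, against 5503. The call of TPS12 was lost without the filter and under upper-quartile or quantile scaling (limma, adjusted p = 0.0679, 0.0531 and 0.0654), and CYP705A19 gained one under upper-quartile scaling (0.0435). The scalings left the median of all genes between 0.013 and 0.019. The precision is limited by 2 libraries per genotype, and the depth of the libraries is known only roughly.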
